A study of Mus musculus with 18 samples.

Results

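The genes examined here number 9 and mark T cells that carry a gamma-delta receptor, natural killer T (NKT) cells and the type 17 programme. They are Trdc, Tcrg-C1, Tcrg-C2, Tcrg-C4, Sox13, Il17a, Il23r, Zbtb16 and Cd163l1. They were taken by gene symbol from the 48440 identifiers of the count table, and all 9 were found. The levels come from bulk RNA-seq of CD45+ cells (leukocytes) sorted from mouse liver. The C57BL/6J mice, labelled WT, were bought at 7 weeks of age and had 1 week to adapt to their feed. Liver tumours were raised in every mouse by hydrodynamic tail vein injection (HTVi) of Ras/Myc. There were 6 groups of 3 libraries. CD3+CD8-, CD3+CD8+ and CD3-CD8- cells came from mice given poly(I:C), which mimics viral double-stranded RNA, at 4 mg/kg together with 200 µg of anti-PD-L1, an antibody to a T cell checkpoint ligand, every other day for 6 doses. The same 3 fractions came from untreated mice with the same tumours. The labels do not say whether the libraries of a group came from separate animals, so p-values measure the spread between these libraries, which may be technical.

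Most T cells carry an alpha-beta receptor. A smaller class carries a receptor of a gamma and a delta chain, and many of these cells in liver and barrier tissues respond fast, without prior priming. Both this class and NKT cells, which see lipids on CD1d, hold subsets that release IL-17A, a cytokine that draws neutrophils. Trdc encodes the constant part of the delta chain, and Tcrg-C1, Tcrg-C2 and Tcrg-C4 encode constant parts of gamma chains. In mice the gamma genes can also rearrange and be transcribed in alpha-beta T cells, so a gamma transcript alone does not mark a gamma-delta T cell.

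The gamma constant genes are shown side by side because their likeness limits how their reads can be assigned. Each sequence is the first 120 coding bases of the first constant exon, from GENCODE vM21 (GRCm38), written on the strand of the gene. Capitals mark the 15 positions at which the 3 genes are not all alike. Tcrg-C1 lies at chr13:19214103-19214222 on the plus strand, Tcrg-C2 at chr13:19307432-19307551 on the minus strand and Tcrg-C4 at chr13:19344558-19344677 on the plus strand.
Tcrg-C1: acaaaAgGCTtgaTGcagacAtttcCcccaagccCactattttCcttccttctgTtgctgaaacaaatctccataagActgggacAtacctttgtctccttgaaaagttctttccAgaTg
Tcrg-C2: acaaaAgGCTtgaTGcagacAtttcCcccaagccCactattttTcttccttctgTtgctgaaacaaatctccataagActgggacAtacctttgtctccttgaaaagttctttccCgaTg
Tcrg-C4: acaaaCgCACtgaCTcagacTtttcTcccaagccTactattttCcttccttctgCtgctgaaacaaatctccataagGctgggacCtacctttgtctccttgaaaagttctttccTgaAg
Over the 330 bases of that exon, Tcrg-C1 and Tcrg-C2 were identical at 97.3% of positions, Tcrg-C1 and Tcrg-C4 at 82.1%, and Tcrg-C2 and Tcrg-C4 at 81.5%. Of all stretches of 50 bases in the annotated transcripts, 29.6% of those in Tcrg-C1 and 25.4% of those in Tcrg-C2 also occurred in another gamma constant gene, against 0 in Tcrg-C4. How reads that match several places were counted is not given in the sources used here, so the split of reads between Tcrg-C1 and Tcrg-C2 is uncertain. Trdc lies at chr14:54142851-54148868 on the plus strand of the same build, outside the gamma locus.

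Library totals ran from 1829155 to 28233682 counts. The 5 loci treated as ribosomal were Rn18s-rs5, mt-Rnr1, mt-Rnr2, Gm15564 and Lars2, the last of them a protein-coding gene. In 3 libraries they took 79.7% to 87.0% of counts, against at most 2.26% elsewhere. These were treated CD3+CD8- replicate 2 and untreated CD3+CD8+ replicates 1 and 18. Levels are therefore given as CPM (read counts relative to the library's total) scaled by the trimmed mean of M values (TMM), a factor set by the bulk of genes. Cd8a stood at 639 CPM in untreated CD3+CD8- replicate 6, which goes against its label, and at 4.63 and 6.80 CPM in the other libraries of its group. Cd3e was also present in the CD3-CD8- libraries, at 173 to 311 CPM in treated and 51.8 to 125 CPM in untreated mice, against that label too. So was Cd8a, at 547 to 982 CPM in treated and 60.6 to 287 CPM in untreated CD3-CD8- libraries. In bulk samples, fewer cells of a type and less RNA per cell cannot be told apart.

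Between the T cell fractions of treated mice, the delta and gamma constant genes did not move together. Tcrg-C2 fell in CD3+CD8- relative to CD3+CD8+ cells, while Trdc had its higher values in CD3+CD8- cells without passing the test. Zbtb16, which encodes PLZF, the transcription factor that directs the NKT cell programme, rose in CD3+CD8- cells. Of the 6 members with enough counts to be tested, 2 were called at an adjusted p below 0.05, 1 higher and 1 lower. Over all 13181 genes tested, 5.96% were called, 5.44% higher and 0.516% lower. The groups did not overlap for 3 members, against 17.2% of all genes.

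Tcrg-C2 was at 50.5, 47.4 and 38.1 CPM in treated CD3+CD8- replicates 2, 11 and 19, against 181.9, 306.9 and 136.9 CPM in treated CD3+CD8+ replicates 2, 11 and 19. Every CD3+CD8- library lay below every CD3+CD8+ library. The fitted log2 fold change was -2.21 (SE 0.46; adjusted p = 0.00731, edgeR quasi-likelihood test with Benjamini-Hochberg adjustment). Within the sequencing lanes, the log2 ratio of mean CPM was -2.37 in lane 2 and -1.63 in lane 3. The sum of Cd8a and Cd8b1, which encode the CD8 chains, was 23.0 to 46.2 CPM in treated CD3+CD8- and 1520 to 2263 CPM in treated CD3+CD8+ libraries. The summed level of 8 alpha-beta T cell markers was 2172 to 3457 CPM in treated CD3+CD8- and 3419 to 4329 CPM in treated CD3+CD8+ libraries, with none of the 8 at 0 throughout a group. The part of these cells in the Tcrg-C2 result was not tested. The call was lost with scaling by library totals alone (-2.72, adjusted p = 0.0699) and on the deposited FPKM (-2.92, adjusted p = 0.306, limma).

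Trdc was at 26.2, 13.6 and 16.3 CPM in treated CD3+CD8- replicates 2, 11 and 19, against 10.7, 7.66 and 4.01 CPM in treated CD3+CD8+ replicates 2, 11 and 19. The groups did not overlap, but the log2 fold change of 1.34 (SE 0.58) did not pass the test (adjusted p = 0.265, edgeR). Tcrg-C4 was at 25.8, 20.6 and 12.6 CPM in treated CD3+CD8- replicates 2, 11 and 19, against 43.5, 47.8 and 16.8 CPM in treated CD3+CD8+ replicates 2, 11 and 19. Its ranges overlapped, and the log2 fold change was -0.89 (SE 0.50; adjusted p = 0.468, edgeR). Tcrg-C1 averaged 17.99 ± 5.11 CPM in treated CD3+CD8- and 21.6 ± 11.1 CPM in treated CD3+CD8+ cells (SD, n = 3 each), with overlapping ranges.

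**Figure D1:**
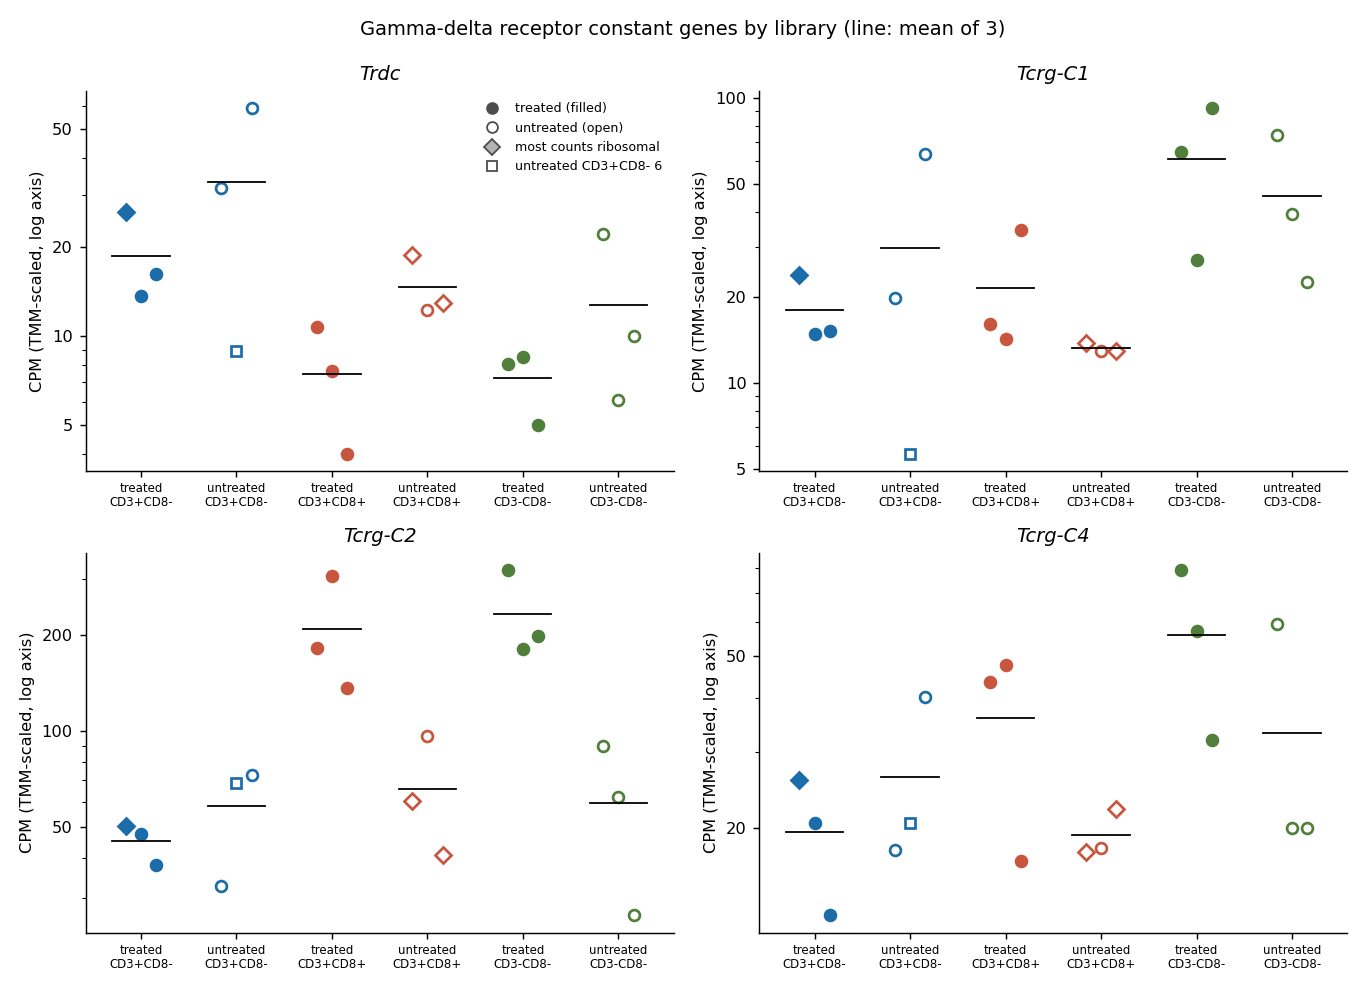
TMM-scaled CPM (log axis) of the delta constant gene and 3 gamma constant genes in each of the 18 libraries, by sorted fraction, with treated left of untreated; the short line is the mean of 3 libraries, diamonds are the 3 libraries rich in ribosomal counts and the square is untreated CD3+CD8- replicate 6. Tcrg-C2 sits at 136.9 to 320.5 CPM in the treated CD3+CD8+ and CD3-CD8- libraries, above its 26.4 to 96.6 CPM in the other 12, whereas Trdc lies between 4.01 and 58.9 CPM.

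Zbtb16 was at 18.1, 2.39 and 4.35 CPM in treated CD3+CD8- replicates 2, 11 and 19, against 0, 0.333 and 0.516 CPM in treated CD3+CD8+ replicates 2, 11 and 19. These stand for 47, 10 and 82 counts in the CD3+CD8- libraries and for 0, 2 and 14 counts in the CD3+CD8+ libraries. The groups did not overlap, and Zbtb16 rose by a log2 fold change of 4.47 (SE 0.95; adjusted p = 0.00866, edgeR). The highest value came from the library rich in ribosomal counts, without which the log2 fold change was 3.26 (adjusted p = 0.0423). The log2 ratio of mean CPM was 3.85 in lane 2 and 4.44 in lane 3. With library totals alone the log2 fold change was 3.31 and the call was lost (adjusted p = 0.0501).

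Markers of other cells differed between the same libraries. The summed level of 9 neutrophil markers was 11580 to 32700 CPM in treated CD3+CD8- and 95.6 to 682.3 CPM in treated CD3+CD8+ libraries, and none of them was at 0 throughout a group. The sum of 8 NK cell and ILC1 markers was 308.7 to 513.0 CPM in treated CD3+CD8- and 298.3 to 392.6 CPM in treated CD3+CD8+ libraries. The sum of 6 ILC2 and ILC3 markers was 10.9 to 25.6 CPM in treated CD3+CD8- and 3.11 to 3.72 CPM in treated CD3+CD8+ libraries. For 3 CD4 T cell markers it was 506.5 to 1065 CPM in treated CD3+CD8- and 27.8 to 39.5 CPM in treated CD3+CD8+ libraries. For 10 Kupffer cell and macrophage markers it was 276.6 to 412.5 CPM in treated CD3+CD8- and 39.0 to 57.9 CPM in treated CD3+CD8+ libraries, and for 8 B cell markers 316.6 to 895.3 CPM in treated CD3+CD8- and 144.8 to 206.2 CPM in treated CD3+CD8+ libraries. All of these sums but that of NK cells and ILC1 lay apart between the groups. The NK cell and ILC1 markers went different ways, so their sum does not show a like content of these cells. Ncr1 (16.7 to 28.5 CPM in treated CD3+CD8- and 0.345 to 2.83 CPM in treated CD3+CD8+ libraries), Klrb1c, Klra8, Klri2 and Tyrobp lay wholly higher in CD3+CD8- libraries. Eomes lay wholly lower there, and Klre1 and Prf1 overlapped. The part of all these cells in the Zbtb16 result was not tested.

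Among untreated mice, 0 of 6 members tested were called between CD3+CD8- and CD3+CD8+ cells by edgeR, against 1.58% of all genes. At an unadjusted p below 0.05 there was 1 member, against 10.4% of genes, and DESeq2 and limma voom called 0. The groups overlapped for all 6 members, while 10.2% of all genes did not overlap. Trdc was at 31.6, 8.89 and 58.9 CPM in untreated CD3+CD8- replicates 5, 6 and 18, against 18.9, 12.3 and 13.0 CPM in untreated CD3+CD8+ replicates 1, 5 and 18. The library that went against its label, CD3+CD8- replicate 6, was the lowest, and the log2 fold change of 1.21 (SE 0.61) had an adjusted p of 0.535 by edgeR. Within lanes the log2 ratio was 1.88 in lane 2 and -0.84 in lane 3, where replicate 6 was the only CD3+CD8- library.

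Zbtb16 was at 8.41, 1.21 and 8.90 CPM in untreated CD3+CD8- replicates 5, 6 and 18, against 1.26, 0.417 and 3.70 CPM in untreated CD3+CD8+ replicates 1, 5 and 18. Replicate 6 was again the low CD3+CD8- library, and the CD3+CD8+ values of replicates 1 and 18 rest on 1 and 2 counts. The log2 fold change was 2.79 (SE 1.15; adjusted p = 0.358, edgeR). Without the libraries rich in ribosomal counts and without CD3+CD8- replicate 6, a setting added after the data were seen, it was 4.30. That setting left replicate 5, with 4 counts, as the only untreated CD3+CD8+ library.

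Tcrg-C1 was at 19.9, 5.66 and 63.8 CPM in untreated CD3+CD8- replicates 5, 6 and 18, against 13.8, 12.9 and 13.0 CPM in untreated CD3+CD8+ replicates 1, 5 and 18. The CD3+CD8- values lay on both sides of the CD3+CD8+ range, which rests on 11 and 7 counts in replicates 1 and 18. The log2 fold change was 1.18 (SE 0.71; adjusted p = 0.666, edgeR). Tcrg-C2 averaged 58.0 ± 22.1 CPM in untreated CD3+CD8- and 65.9 ± 28.4 CPM in untreated CD3+CD8+ cells (SD, n = 3 each). Tcrg-C4 averaged 26.2 ± 12.3 CPM in untreated CD3+CD8- and 19.3 ± 2.55 CPM in untreated CD3+CD8+ cells (SD, n = 3 each). Both genes overlapped between the untreated fractions.

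Whether the treated over untreated change differed between CD3+CD8- and CD3+CD8+ cells was tested directly, as the first change minus the second. Of the 6 members tested, 0 were called, and of all 13181 genes 0% were called by edgeR, with 3.63% at an unadjusted p below 0.05. Among the members that was 1, Tcrg-C2, with a log2 difference of -1.97 (SE 0.63; adjusted p = 0.609, unadjusted p = 0.00641). DESeq2 and limma voom called 0 members. The log2 differences of Tcrg-C1 (-1.48, SE 0.96), Tcrg-C4 (-1.36, SE 0.73) and Zbtb16 (1.68, SE 1.51) each had an adjusted p of 0.9999, and that of Zbtb16 was -0.57 once the libraries with abundant ribosomal counts were left out. The Tcrg-C2 difference between fractions was thus called in treated mice alone but not shown to differ from that in untreated mice.

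**Figure D2:**
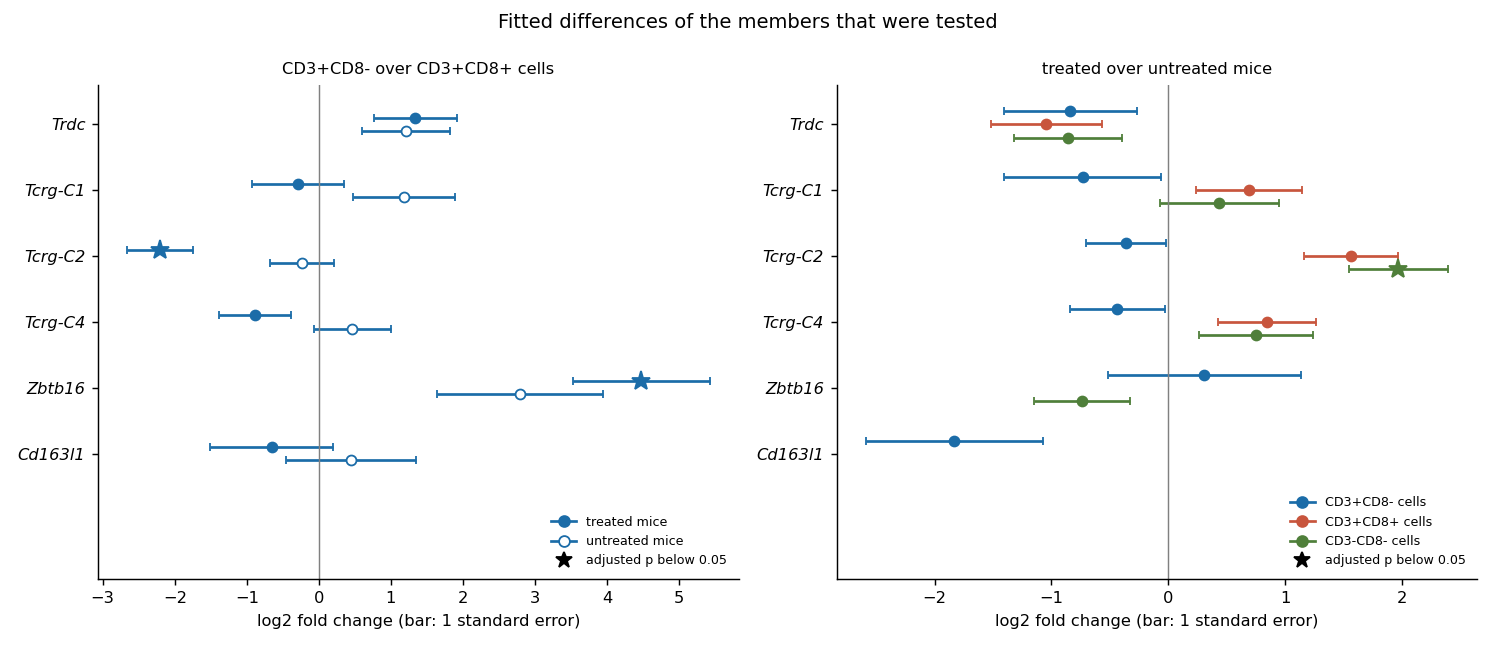
Fitted log2 fold changes of the tested members (points) with bars of 1 SE: at left CD3+CD8- over CD3+CD8+ cells in treated and untreated mice, at right treated over untreated mice in each fraction; a star marks an adjusted p below 0.05. Tcrg-C2 at -2.21 and Zbtb16 at 4.47 carry stars at left in treated mice, and Tcrg-C2 at 1.97 carries the star at right, in CD3-CD8- cells.

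Treatment was set against no treatment in each fraction. In CD3-CD8- cells Tcrg-C2 rose, at 320.5, 181.5 and 198.7 CPM in treated replicates 2, 11 and 19, against 89.7, 62.3 and 26.4 CPM in untreated replicates 1, 5 and 18. The groups did not overlap, and the log2 fold change was 1.97 (SE 0.43; adjusted p = 0.0179, edgeR). The log2 ratio of mean CPM was 2.11 in lane 2 and 1.67 in lane 3. Tcrg-C2 was the 1 member called of 6 tested, against 25.6% of 13781 genes (10.2% higher, 15.3% lower), and the 1 tested member whose groups did not overlap, against 45.4% of genes.

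Markers of T cells moved with Tcrg-C2 in this CD3-CD8- comparison. The sum of Cd8a and Cd8b1 was 764.9 to 1416 CPM in treated and 100.4 to 461.8 CPM in untreated CD3-CD8- libraries. The sum of the 8 alpha-beta T cell markers was 3305 to 4783 CPM in treated and 638.4 to 1610 CPM in untreated CD3-CD8- libraries, and their part in the result was not tested. The call was lost without untreated replicate 5 (adjusted p = 0.0835; 239 genes called in all, against 3522), without treated replicate 2 (adjusted p = 0.0679; 910 genes called), with an offset for GC content (1.59, adjusted p = 0.0527), on FPKM (adjusted p = 0.0875, limma) and in 1 fit of all 18 libraries (adjusted p = 0.0554). Without treated replicate 19 the call held, but 1185 genes were called in all.

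The other receptor genes did not pass in CD3-CD8- cells. Trdc was at 8.08, 8.52 and 5.02 CPM in treated replicates 2, 11 and 19, against 22.1, 6.08 and 10.03 CPM in untreated replicates 1, 5 and 18. Its ranges overlapped, with a log2 fold change of -0.86 (SE 0.46; adjusted p = 0.207, edgeR). Tcrg-C4 was at 79.4, 57.3 and 32.0 CPM in treated replicates 2, 11 and 19, against 59.5, 20.1 and 20.1 CPM in untreated replicates 1, 5 and 18 (log2 fold change 0.75, SE 0.49; adjusted p = 0.288, edgeR). Untreated replicate 1 was the untreated library within the treated range. Tcrg-C1 averaged 61.3 ± 32.8 CPM in treated and 45.4 ± 26.4 CPM in untreated CD3-CD8- cells (SD, n = 3 each), and Zbtb16 averaged 4.03 ± 1.57 CPM in treated and 6.64 ± 2.95 CPM in untreated CD3-CD8- cells (SD, n = 3 each). Zbtb16 had a log2 fold change of -0.74 (SE 0.41; adjusted p = 0.220, edgeR).

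In CD3+CD8+ cells Tcrg-C2 was at 181.9, 306.9 and 136.9 CPM in treated replicates 2, 11 and 19, against 60.3, 96.6 and 40.7 CPM in untreated replicates 1, 5 and 18. All treated libraries lay above all untreated ones, but the log2 fold change of 1.57 (SE 0.40) had an adjusted p of 0.454 and an unadjusted p of 0.00308 by edgeR. Of the 4 members tested, 0 were called, and of 10654 genes 0% were called, with 5.86% at an unadjusted p below 0.05. DESeq2 and limma voom each called 1 member, Tcrg-C2, among 99 and 194 genes called. Of the 4 members, 2 lay wholly above and 1 wholly below the untreated libraries, against 6.56% and 3.45% of all genes. The log2 ratio of Tcrg-C2 was 1.34 in lane 2 and 1.44 in lane 3. Both untreated replicates 1 and 18 were rich in ribosomal counts. The sum of Cd8a and Cd8b1 was 1520 to 2263 CPM in treated and 473.9 to 1925 CPM in untreated CD3+CD8+ libraries.

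The other members without overlap in CD3+CD8+ cells were Tcrg-C1 and Trdc. Tcrg-C1 was at 16.1, 14.3 and 34.4 CPM in treated replicates 2, 11 and 19, against 13.8, 12.9 and 13.0 CPM in untreated replicates 1, 5 and 18, a small gap at its nearest (log2 fold change 0.69, SE 0.45; adjusted p = 0.999, edgeR). Trdc lay the other way, at 10.7, 7.66 and 4.01 CPM in treated replicates 2, 11 and 19, against 18.9, 12.3 and 13.0 CPM in untreated replicates 1, 5 and 18. Its log2 fold change was -1.04 (SE 0.47; adjusted p = 0.869, edgeR), and it turned to 0.37 with scaling by library totals and to 0.48 on FPKM. In untreated replicates 1 and 18, Tcrg-C1 had 11 and 7 counts and Trdc 15 and 7, so both gaps rest on few counts. Tcrg-C4 was at 43.5, 47.8 and 16.8 CPM in treated and 17.6, 18.02 and 22.2 CPM in untreated libraries in those orders, with overlap and a log2 fold change of 0.84 (SE 0.42; adjusted p = 0.951, edgeR).

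In CD3+CD8- cells 0 of 6 members tested were called between treated and untreated mice, and of 11197 genes 0% were called by edgeR, with 1.77% at an unadjusted p below 0.05. DESeq2 and limma voom called 0 members. Trdc was at 26.2, 13.6 and 16.3 CPM in treated replicates 2, 11 and 19, against 31.6, 8.89 and 58.9 CPM in untreated replicates 5, 6 and 18. The untreated libraries spread to both sides of the treated ones, and the log2 fold change of -0.84 (SE 0.57) had an adjusted p of 0.9998. The log2 ratio of mean CPM was -1.73 in lane 2 and 1.26 in lane 3, so the direction did not hold within lanes. Tcrg-C1 (log2 fold change -0.73, SE 0.67) and Tcrg-C4 (-0.44, SE 0.41) turned to 0.41 and 0.0066 without untreated replicate 18, and Tcrg-C2 had a log2 fold change of -0.36 (SE 0.34). Each of these 3 had an adjusted p of 0.9998 by edgeR.

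Cd163l1, which encodes the scavenger receptor SCART1 of the gamma-delta lineage, was the 1 member whose groups did not overlap in CD3+CD8- cells between treated and untreated mice, against 4.01% of all genes. It was at 0.770, 0 and 1.54 CPM in treated replicates 2, 11 and 19, against 3.05, 3.64 and 3.40 CPM in untreated replicates 5, 6 and 18. These rest on 2, 0 and 29 counts in treated and on 25, 9 and 13 counts in untreated libraries. Its log2 fold change was -1.83 (SE 0.76; adjusted p = 0.9998, unadjusted p = 0.0375, edgeR). In CD3+CD8+ cells Cd163l1 was at 0.518, 1.17 and 2.32 CPM in treated replicates 2, 11 and 19, and at 2.51, 3.23 and 0 CPM in untreated replicates 1, 5 and 18. Those ranges overlapped, as 1 untreated library of low depth had no count.

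The CD3+CD8- fraction was also set against the CD3-CD8- fraction, where samples with the same replicate number deviated together, so the fit with the number as a block is given beside the fit without it. In treated mice Tcrg-C2 fell, at 50.5, 47.4 and 38.1 CPM in CD3+CD8- replicates 2, 11 and 19, against 320.5, 181.5 and 198.7 CPM in CD3-CD8- replicates 2, 11 and 19. The groups did not overlap, and the log2 fold change was -2.37 (SE 0.46; adjusted p = 0.0181, edgeR), with an adjusted p of 0.0126 under the block. It was the 1 member called of 6, against 1.23% of all genes (0.577% higher, 0.652% lower), and 1 of 4 members whose groups did not overlap, against 20.2% of genes. The sum of Cd8a and Cd8b1 was 23.0 to 46.2 CPM in treated CD3+CD8- and 764.9 to 1416 CPM in treated CD3-CD8- libraries, the B cell sum 316.6 to 895.3 CPM in treated CD3+CD8- and 2491 to 3508 CPM in treated CD3-CD8- libraries, and the CD4 T cell sum 506.5 to 1065 CPM in treated CD3+CD8- and 76.2 to 108.0 CPM in treated CD3-CD8- libraries. The part of these cells in the result was not tested. The call was lost on leaving out any of treated CD3+CD8- replicates 2, 11 and 19 or treated CD3-CD8- replicate 2 (adjusted p of 0.0547 to 0.0665), with library totals alone and on FPKM.

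The block added the calls of Trdc and Tcrg-C4 and made 641 calls over all genes, against 162 without it. Trdc was at 26.2, 13.6 and 16.3 CPM in treated CD3+CD8- replicates 2, 11 and 19, against 8.08, 8.52 and 5.02 CPM in treated CD3-CD8- replicates 2, 11 and 19. It was higher in CD3+CD8- cells in all 3 pairs, with a log2 fold change of 1.37 (SE 0.57; adjusted p = 0.282) without the block and an adjusted p of 0.0216 with it. Tcrg-C4 was at 25.8, 20.6 and 12.6 CPM in treated CD3+CD8- replicates 2, 11 and 19, against 79.4, 57.3 and 32.0 CPM in treated CD3-CD8- replicates 2, 11 and 19. It was lower in all 3 pairs, with a log2 fold change of -1.54 (SE 0.50; adjusted p = 0.143) without the block and an adjusted p of 0.0216 with it. Tcrg-C1, at 64.7, 26.9 and 92.2 CPM in treated CD3-CD8- replicates 2, 11 and 19 and lower in treated CD3+CD8- libraries, had a log2 fold change of -1.79 (SE 0.65; adjusted p = 0.198, edgeR).

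The low-count members Cd163l1 and Zbtb16 were not called between CD3+CD8- and CD3-CD8- cells of treated mice. Cd163l1 had 0.770, 0 and 1.54 CPM in treated CD3+CD8- replicates 2, 11 and 19, against 0, 0.396 and 0.0609 CPM in treated CD3-CD8- replicates 2, 11 and 19 (log2 fold change 3.38, SE 1.09; adjusted p = 0.135, edgeR). Zbtb16 had a log2 fold change of 0.98 (SE 0.78; adjusted p = 0.678, edgeR), which rested on treated CD3+CD8- replicate 2 and was -0.21 without it.

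In untreated mice Cd163l1 rose in CD3+CD8- relative to CD3-CD8- cells. It was at 3.05, 3.64 and 3.40 CPM in untreated CD3+CD8- replicates 5, 6 and 18, against 0.204, 0.192 and 0.241 CPM in untreated CD3-CD8- replicates 1, 5 and 18. All CD3+CD8- libraries lay above all CD3-CD8- libraries, which had 3, 8 and 3 counts, and the log2 fold change was 3.94 (SE 0.93; adjusted p = 0.0292, edgeR). It was the 1 member called of 6, against 3.16% of all genes (1.71% higher, 1.46% lower), and the 1 without overlap, against 22.9%. The log2 ratio of mean CPM was 3.86 in lane 2 and 4.24 in lane 3. The B cell marker sum over 8 genes was 382.5 to 487.9 CPM in untreated CD3+CD8- and 4078 to 6269 CPM in untreated CD3-CD8- libraries, and the alpha-beta T cell sum 1574 to 2945 CPM and 638.4 to 1610 CPM. In the same order the neutrophil sum was 3286 to 14980 CPM and 129.6 to 842.9 CPM, and the CD4 T cell sum 125.6 to 509.3 CPM and 43.1 to 101.7 CPM. The NK cell and ILC1, ILC2 and ILC3, and Kupffer cell and macrophage sums lay wholly lower in CD3+CD8- libraries. The part of these cells in the result was not tested. The call was lost without untreated CD3-CD8- replicate 1, 5 or 18 (adjusted p of 0.132, 0.188 and 0.107) and without untreated CD3+CD8- replicate 5 or 18 (0.0854 and 0.0861).

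Trdc was at 31.6, 8.89 and 58.9 CPM in untreated CD3+CD8- replicates 5, 6 and 18, against 22.1, 6.08 and 10.03 CPM in untreated CD3-CD8- replicates 1, 5 and 18. In both pairs with a shared number the CD3+CD8- library was higher. The log2 fold change was 1.39 (SE 0.56; adjusted p = 0.229, edgeR) without the block, 2.33 (adjusted p = 0.00298) with it and 1.82 (adjusted p = 0.0480) without replicate 6. CD3+CD8- replicate 6 shares its number with no other library, so the fit with the block draws nothing from it here. The block made 1362 calls over all genes, against 417 without it.

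The members that stand for the type 17 programme were near the limit of detection. Il17a, the cytokine itself, had 10 counts in 7 of the 18 libraries. It had 0, 0 and 1 count in treated CD3+CD8- replicates 2, 11 and 19, against 4, 0 and 0 counts in untreated CD3+CD8- replicates 5, 6 and 18. Over the 3 libraries of a group there was 1 count in treated and 1 in untreated CD3+CD8+ cells. Treated CD3-CD8- libraries had 0 counts, against 1 count in each untreated CD3-CD8- library. In the libraries at 0, that count allows a level of up to 0.0913 to 5.55 CPM, by library depth (3 counts, counting error only). Differences in Il17a below those levels could not be seen.

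Sox13, a transcription factor of IL-17-making gamma-delta T cells, had 27 counts in 9 libraries. It had 1, 1 and 2 counts in treated CD3+CD8- replicates 2, 11 and 19, against 7, 0 and 0 counts in untreated CD3+CD8- replicates 5, 6 and 18. The CD3+CD8+ libraries held 2 counts, both in treated replicate 19. The CD3-CD8- libraries had 1, 0 and 0 counts in treated replicates 2, 11 and 19, against 5, 3 and 5 counts in untreated replicates 1, 5 and 18, without overlap. Of all genes tested there, 45.4% did not overlap. The 0 of treated replicate 11 allows up to 0.594 CPM (3 counts). That is above the untreated values of 0.340, 0.0721 and 0.401 CPM, so this library cannot show a lower level. Neither Sox13 nor Il17a had enough counts for a test.

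Il23r, the receptor that sustains type 17 cells, had 137 counts in 14 libraries. It was at 0.385, 1.20 and 1.17 CPM in treated CD3+CD8- replicates 2, 11 and 19, against 2.07, 0 and 0.523 CPM in untreated CD3+CD8- replicates 5, 6 and 18. The ranges overlapped, and the counts were 1, 5 and 22 in treated and 17, 0 and 2 in untreated libraries. The treated CD3+CD8+ libraries had 0, 0 and 8 counts in replicates 2, 11 and 19, and the untreated ones 0, 1 and 1 in replicates 1, 5 and 18. Il23r could be tested in CD3-CD8- cells alone, at 0.518, 0.594 and 0.852 CPM in treated replicates 2, 11 and 19 and 1.29, 0.289 and 0.401 CPM in untreated replicates 1, 5 and 18, and was not called. The treated values lay within the untreated range.

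Per transcript length, in the deposited FPKM, Tcrg-C2 was the most abundant member in each of the 6 group means. It averaged 37.7 FPKM in treated and 61.8 FPKM in untreated CD3+CD8- cells, 240.8 FPKM in treated and 44.3 FPKM in untreated CD3+CD8+ cells, and 275.5 FPKM in treated and 75.8 FPKM in untreated CD3-CD8- cells. Trdc averaged 3.32 FPKM in treated and 8.03 FPKM in untreated CD3+CD8- cells, 2.18 FPKM in treated and 1.49 FPKM in untreated CD3+CD8+ cells, and 1.92 FPKM in treated and 3.74 FPKM in untreated CD3-CD8- cells. Hence the gamma constant Tcrg-C2 exceeded the delta constant on this scale in every group. FPKM are relative to each library's total, so the libraries rich in ribosomal counts are low on it.

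Across the 18 libraries, Tcrg-C2 and Trdc did not rise and fall together. Pearson's r of their log2 CPM was -0.489, against 0.716 between Tcrg-C2 and Tcrg-C4 and 0.511 between Tcrg-C1 and Tcrg-C4. Trdc had r = -0.005 with Tcrg-C1 and -0.016 with Tcrg-C4. The libraries share fractions and treatments, so these values are a description.

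**Figure D3:**
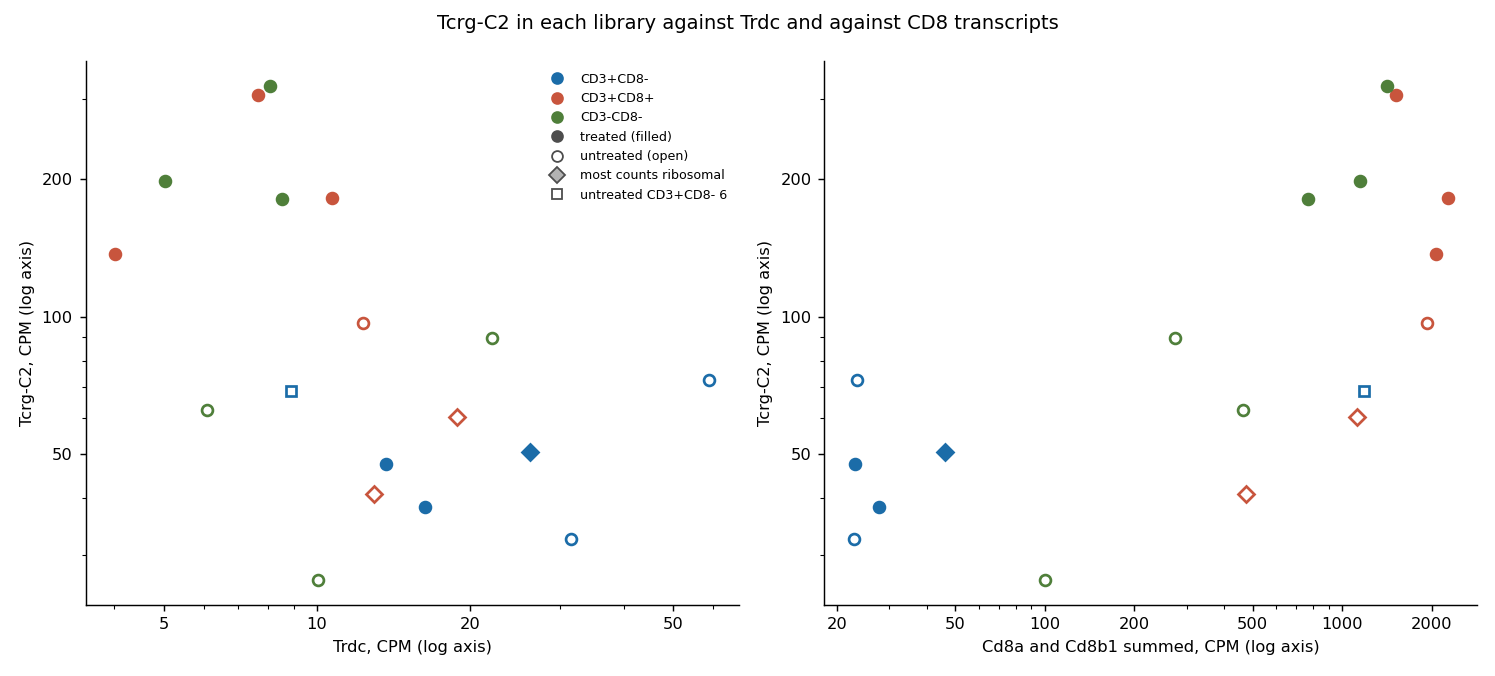
TMM-scaled CPM of Tcrg-C2 in each of the 18 libraries against Trdc (left) and against the sum of Cd8a and Cd8b1 (right), on log axes, with a colour per fraction and filled or open symbols by treatment. The libraries with the highest Tcrg-C2, 136.9 to 320.5 CPM, are treated CD3+CD8+ and CD3-CD8- libraries with CD8 sums of 764.9 to 2263 CPM, and they lie at 4.01 to 10.7 CPM of Trdc.

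For each member in the fit of all libraries, the 3 genes most like it were taken by Pearson's r over the 18 libraries. For Tcrg-C2 they were Trgv2 (r = 0.979), a gamma variable gene segment, Trbc1 (0.912), a constant gene of the alpha-beta receptor, and Gimap6 (0.906). Trgv2 was at 12.3, 17.2 and 9.91 CPM in treated CD3+CD8- replicates 2, 11 and 19, against 43.4, 68.7 and 34.4 CPM in treated CD3+CD8+ replicates 2, 11 and 19, with no overlap. Of all genes, 17.2% did not overlap in that comparison. Trgv2 was picked by its likeness to Tcrg-C2 over these same libraries, so its levels are not a separate result. For Trdc they were Cd44 (0.886), an adhesion receptor of activated T cells, Nebl (0.868) and Nfe2l2 (0.839). For Zbtb16 they were Pip5k1b (0.921), Atf3 (0.907) and Irak3 (0.901), and for Cd163l1 Adam11 (0.879), Smim5 (0.858) and Trav5-4 (0.828). The highest r was 0.752 for Tcrg-C1 (Rufy1 and Lgals8) and 0.811 for Tcrg-C4 (Wls).

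Other genes of these programmes were followed in 10 lists. In the treated CD3+CD8- against CD3+CD8+ comparison, 5.44% of all genes were called higher and 0.516% lower. Between CD3+CD8- and CD3+CD8+ cells of treated mice, 0 of 9 type 17 transcription factors (median log2 fold change 0.46, against -0.05 over all genes) and 0 of 10 type 17 receptor and signalling genes (median 0.06) were called. Of the 7 gamma-delta receptor segments tested, 0 rose and 1 fell (median 0.12), Tcrg-V3, at -3.50 on the log2 scale (adjusted p = 0.0399, edgeR). Of the 2 type 17 cytokines tested 1 rose, Il21, a cytokine also made by helper T cells (4.46, adjusted p = 0.0399), while Il17f did not pass 0.404 CPM in any library.

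In the same comparison 6 of 13 surface and other markers of innate type 17 cells rose and 0 fell (median 0.79), among them Cd9, a tetraspanin (2.84, adjusted p = 0.000968), Ltb4r1, the leukotriene B4 receptor (5.18, adjusted p = 0.00168), and Tmem176b (2.99, adjusted p = 0.00611). Of 22 NKT and innate-like genes 4 rose and 0 fell (median 0.39), among them Il4 (6.16, adjusted p = 0.00357), Fcer1g (3.01, adjusted p = 0.00524) and Izumo1r (1.90, adjusted p = 0.0306). Il4 was at 7.70, 3.11 and 3.45 CPM in treated CD3+CD8- replicates 2, 11 and 19, against 0, 0.166 and 0.037 CPM in treated CD3+CD8+ replicates 2, 11 and 19. Of 3 genes tested from the MAIT cell list 1 rose (median 1.64), Cd44 (1.64, adjusted p = 0.0265, edgeR). Cd44 is an adhesion receptor of activated T cells and does not mark MAIT cells alone. These counts stand beside 5.44% of all genes called higher and 0.516% lower. The neutrophil sum was 11580 to 32700 CPM in treated CD3+CD8- and 95.6 to 682.3 CPM in treated CD3+CD8+ libraries. The Kupffer cell and macrophage sum was 276.6 to 412.5 CPM in treated CD3+CD8- and 39.0 to 57.9 CPM in treated CD3+CD8+ libraries. For the CD4 T cell markers it was 506.5 to 1065 CPM in treated CD3+CD8- and 27.8 to 39.5 CPM in treated CD3+CD8+ libraries. The part of these cells was not tested.

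Of 6 genes in the IL-17 target and neutrophil-drawing list 4 rose between the treated fractions (median 5.92), among them Lcn2 (6.54, adjusted p = 0.00401), Cxcl2 (6.05, adjusted p = 0.00200) and S100a9 (5.93, adjusted p = 0.0281). That list also holds Il17ra, a chain of the IL-17 receptor, and Traf3ip2, its adaptor. Of 6 type 17 ligands 1 rose, Il1b (5.94, adjusted p = 0.00257; median 0.86). Neutrophils make several of these transcripts, and S100a9 is also in the neutrophil list, whose sum was 11580 to 32700 CPM in treated CD3+CD8- and 95.6 to 682.3 CPM in treated CD3+CD8+ libraries. The part of neutrophils in these lists was not tested. Of 7 gamma-delta inhibitory and ligand-side genes 0 were called (median -0.08). In untreated mice the calls by edgeR between these fractions were Il1b (4.21, adjusted p = 0.0447), Cd9 (2.09, adjusted p = 0.0250) and Cxcl2 (5.34, adjusted p = 0.0385), with 0 in the other 7 lists. Over all genes, 1.58% were called in that comparison.

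Between treated and untreated CD3-CD8- cells, the list counts stand beside 10.2% of all genes called higher and 15.3% called lower. Of 8 receptor segments 2 rose and 0 fell (median -0.13, against -0.06 over all genes), Tcrg-C3 (2.63, adjusted p = 0.0224) and Tcrg-V3 (2.196, adjusted p = 0.0336). Tcrg-C3 is itself close in sequence to Tcrg-C1 and Tcrg-C2, at 96.1% and 96.7% of exon positions, so its counts carry the same doubt. Of 22 NKT and innate-like genes 4 rose and 2 fell (median -0.13), including Sh2d1a (1.69, adjusted p = 0.00878), Trbv29 (2.92, adjusted p = 0.0146) and Klrb1c, which encodes NK1.1 (-1.31, adjusted p = 0.0347). The sum of the 8 NK cell and ILC1 markers, Klrb1c among them, was 513.3 to 958.8 CPM in treated and 930.6 to 1256 CPM in untreated CD3-CD8- libraries. For the alpha-beta T cell markers it was 3305 to 4783 CPM in treated and 638.4 to 1610 CPM in untreated CD3-CD8- libraries. The part of these cells in the calls was not tested. Of 13 innate type 17 markers 1 rose and 6 fell (median -0.96), including Gpr183 (-0.96, adjusted p = 0.00905), Actn2 (1.77, adjusted p = 0.0189) and Tmem176a (-1.55, adjusted p = 0.0234).

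Of 9 type 17 transcription factors in CD3-CD8- cells 2 rose with treatment (median 0.02), Maf (0.81, adjusted p = 0.0141) and Hif1a (0.60, adjusted p = 0.0283). Of 7 type 17 ligands 2 fell (median -0.41), Tgfb1 (-1.18, adjusted p = 0.00826) and Il6 (-2.18, adjusted p = 0.0146), and of 10 receptor and signalling genes 1 fell (median -0.36), Tyk2 (-0.73, adjusted p = 0.0211). Il21 rose (4.37, adjusted p = 0.0128), 1 of 2 cytokines tested, as did Mr1, which presents to MAIT cells (0.68, adjusted p = 0.0276), 1 of 3. Of 6 genes in the IL-17 target and neutrophil-drawing list 1 fell, Il17ra, a chain of the IL-17 receptor and not a target (-0.63, adjusted p = 0.0286; median 1.59). Of 7 gamma-delta inhibitory and ligand-side genes 1 rose and 3 fell (median -1.26), including Prdm1 (1.65, adjusted p = 0.00915), Tcf7 (-1.28, adjusted p = 0.00905) and Id3 (-2.67, adjusted p = 0.0112). B cell markers summed to 2491 to 3508 CPM in treated and 4078 to 6269 CPM in untreated CD3-CD8- libraries beside these changes, and their part was not tested.

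In the treated against untreated comparisons of CD3+CD8- and of CD3+CD8+ cells, and in the difference between those, edgeR called 0 genes in each of the 10 lists.

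Between CD3+CD8- and CD3-CD8- cells of treated mice, 3 of 10 type 17 receptor and signalling genes rose (median 0.15, against 0.01 over all genes), Il6ra (1.96, adjusted p = 0.0105, edgeR), Il7r (2.26, adjusted p = 0.0283) and Il18r1 (2.04, adjusted p = 0.0323), receptors of IL-6, IL-7 and IL-18. Of 7 gamma-delta inhibitory and ligand-side genes 2 rose (median -0.14), Lef1 (3.40, adjusted p = 0.00281) and Tcf7 (2.87, adjusted p = 0.00292), transcription factors of T cell development. Of 13 innate type 17 markers 1 fell (median 0.54), Blk, a kinase of B cells and of IL-17-making gamma-delta T cells (-5.02, adjusted p = 0.0181). No gene of the other 7 lists was called by edgeR. Over all genes, 0.577% were called higher and 0.652% lower.

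Between the same fractions of untreated mice, 2 of 10 receptor and signalling genes rose (median 0.28, against 0.02 over all genes), Il7r (2.06, adjusted p = 0.0280, edgeR) and Il6ra (1.40, adjusted p = 0.0350). Of 7 gamma-delta inhibitory and ligand-side genes 2 rose (median 0.59), Tcf7 (2.0, adjusted p = 0.00880) and Lef1 (2.13, adjusted p = 0.0125). Of 6 genes in the IL-17 target and neutrophil-drawing list 2 rose (median 4.23), Cxcl2 (4.12, adjusted p = 0.0149) and Lcn2 (4.48, adjusted p = 0.0372). Of 13 innate type 17 markers 1 rose, 5830411N06Rik (2.57, adjusted p = 0.0208), and 1 fell, Blk (-6.47, adjusted p = 0.00353; median -0.29). Of 6 type 17 ligands 1 fell, Il6 (-3.87, adjusted p = 0.0289; median -0.92), and of 9 type 17 transcription factors 1 fell, Irf4 (-1.34, adjusted p = 0.0372; median 0.58). Beside these, the neutrophil sum was 3286 to 14980 CPM and the B cell sum 382.5 to 487.9 CPM in untreated CD3+CD8- libraries, against a neutrophil sum of 129.6 to 842.9 CPM and a B cell sum of 4078 to 6269 CPM in untreated CD3-CD8- libraries. The part of these cells was not tested, and no gene of the other 4 lists was called by edgeR. Over all genes, 1.71% were called higher and 1.46% lower.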

How the data were processed

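Bulk RNA-seq of sorted CD45+ liver cells was analysed from the authors' deposited read counts per gene, with raw values, and from the deposited FPKM, which are scaled to library total and transcript length. Per the submitters' processing notes, the tools were Cufflinks 2.2.1, DESeq2 3.20, HTSeq 0.13.5 and Trim Galore 0.6.7. The sources used here give no aligner, genome build or strand setting. Of 40 library columns, 22 were not used. The members and lists were chosen with earlier results of these data known. Symbols came from the FPKM table, joined by identifier.

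Counts were tested with edgeR 4.0.16 (quasi-likelihood, filterByExpr, TMM, Benjamini-Hochberg over all genes tested, two-sided), within a fraction for treatment (6 libraries) and over all 18 libraries as 6 groups otherwise. Log2 fold changes are given for members where they exceeded their SE; the others are described by levels. From each list, up to 3 called genes of smallest adjusted p were named; single values of 1 list gene are not reported here. DESeq2 1.42.0 and limma 3.58.1 (R 4.3.3; FPKM as log2(FPKM + 1), mean of at least 1) were alternatives, with other scalings, filters, lane, GC offset (a GC value for 83.8% of genes) and libraries left out. Same-numbered CD3+CD8- and CD3-CD8- libraries deviated together in all 5 pairs (r = 0.168 to 0.556), so the replicate block is given for that comparison; the pairing comes from the titles' numbers. The scripts were tested on simulated data.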

Additional observations from a re-analysis of the deposited data

How the results depend on the processing

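Over the alternatives tried, 574 member values kept their direction and their side of the threshold, 23 came to pass it, 19 ceased to pass it and 11 changed sign. Members called in CD3+CD8+ cells by treatment (0) were 1 with no filter on low counts, by DESeq2 and by limma voom. In CD3-CD8- cells (1) they were 2 with no filter and by voom, 0 on FPKM, with the GC offset and in 1 fit of 18 libraries, and 0 to 2 on leaving out 1 library. Between CD3+CD8- and CD3+CD8+ cells of treated mice (2) they were 0 with library totals and on FPKM. Between these cells of untreated mice (0) they were 1 with library totals and with no filter. Between CD3+CD8- and CD3-CD8- cells of treated mice (1) they were 0 with library totals and on FPKM, 4 with no filter, 3 by voom and 0 to 1 on leaving out 1 library; of untreated mice (1), 2 with no filter and by voom, 0 with the stricter filter and on FPKM and 0 to 2 on leaving out 1 library. The difference of treatment effects had 1 with no filter. The cause of these changes was not tested.

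Untreated CD3+CD8- replicate 6 shares its number with no other library, so fits with the replicate block draw nothing from it. With the replicate block, CD3+CD8- against CD3-CD8- cells had 3 members called in treated and 2 in untreated mice. CD3+CD8- against CD3+CD8+ cells had 3 in treated mice, adding Trdc (1.42, adjusted p = 0.00971), and 1 in untreated mice, Trdc (1.84, adjusted p = 0.0134); here same-numbered libraries had r of -0.0414 to 0.495 over 5 pairs, 3 of them above 0.1, and not every library had its highest r with its own number.

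Signs changed for Trdc by treatment in CD3+CD8+ cells (0.37 with library totals, 0.48 on FPKM), for Tcrg-C1 and Tcrg-C4 by treatment in CD3+CD8- cells without untreated CD3+CD8- replicate 18 (0.41 and 0.0066, the highest values on leaving out 1 library, with lowest values of -1.20 and -0.70), for Zbtb16 in treated CD3+CD8- against CD3-CD8- cells (-0.20 with library totals, -0.22 without the libraries rich in ribosomal counts, -0.21 without treated CD3+CD8- replicate 2, the lowest on leaving out 1 library, with a highest of 1.35, and -0.22 in the added setting) and for Zbtb16 in the difference of treatment effects (-0.77, -0.57 and -1.0 with library totals, without the rich libraries and in the added setting). On leaving out 1 library, genes called over the whole table numbered 239 to 3183 by treatment in CD3-CD8- cells (3522 with all libraries), 405 to 700 (785) and 0 to 374 (208) between CD3+CD8- and CD3+CD8+ cells of treated and of untreated mice, and 46 to 212 (162) and 92 to 554 (417) between CD3+CD8- and CD3-CD8- cells of treated and of untreated mice; the 0 was without untreated CD3+CD8+ replicate 1. Depth limits the low-count members: 3 counts stand for 0.0721 to 5.55 CPM by library.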

Other observations

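Receptor segments that mark particular lineages were present at low levels. Traj18, the joining segment of the invariant NKT receptor, reached 3.47 CPM in treated CD3+CD8- replicate 2 and stayed at or below 1.26 CPM in the other libraries, and Trav11, its variable segment, was at or below 0.385 CPM in every library. Trav1, of the MAIT cell receptor, reached 4.14 CPM in treated CD3+CD8+ replicate 2. Trdv4, a delta variable segment, was at 0.770, 0.717 and 1.22 CPM in treated CD3+CD8- replicates 2, 11 and 19, against 5.49, 0.404 and 6.28 CPM in untreated CD3+CD8- replicates 5, 6 and 18, with overlap through the library that went against its label. Tcrg-V6 stayed at or below 3.33 CPM in every library, and Ccl20 at or below 1.85 CPM.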
